A study of Rattus norvegicus with 12 samples.

Results

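Genes of the endoplasmic reticulum (ER) that fold, check and ship secreted proteins were followed in rat knee articular cartilage. The set holds 40 genes, listed by function but with earlier results of these data known. It covers ER chaperones and foldases, stress sensors and transcription factors, genes of ER-associated degradation, the translocon, the COPII coat, and cargo receptors, retrieval receptors and fusion proteins. Of these 40, 38 had a probe set that carries that gene's symbol and no other, out of 14218 genes on the array with such a probe set. Ern1 and Sec23a had none. The probe set with the highest mean over the 12 arrays stood for each gene. A filter on low values, a log2 value over 4 on at least 3 of the 12 arrays in any group, kept 36 of the 38. Creb3l2, with a highest value of 3.81, and Sec31a, with a highest value of 3.04, were left out and are not tested.

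Cartilage was taken 2 weeks after surgery that induces osteoarthritis (OA), 2 weeks after sham surgery, 8 weeks after OA surgery and 8 weeks after sham surgery, with 3 Affymetrix arrays of total RNA per group. The labels refer to an earlier publication for the surgery and give no strain, sex or age. Each group's arrays carry replicate numbers, but no label says that they come from separate animals. A p-value here therefore reflects the spread among these arrays, which may be technical, and their number limits the precision. The cartilage genes Col2a1, which encodes the type II collagen chain, and Acan, which encodes aggrecan, read 15.88 to 16.27 and 14.10 to 14.64 on the 12 arrays. All levels are log2 values and all differences are differences of log2 values, so a difference of 1 is a doubling.

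Chondrocytes secrete large amounts of collagen and proteoglycan. A secreted chain enters the ER through the SEC61 translocon, is folded there by chaperones of the HSP70 and HSP90 families and by disulfide isomerases, and leaves in vesicles coated by COPII. Proteins that escape are returned from the Golgi by KDEL receptors. When unfolded protein accumulates, the sensors IRE1, PERK and ATF6 start the unfolded protein response, in which ATF6 and spliced XBP1 raise the transcription of chaperone genes through short promoter elements.

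These elements were searched in the 300 bases around each gene's start, taken from RefSeq on the GRCr8 build, where 32 of the 40 genes had a window. The ER stress element (ERSE, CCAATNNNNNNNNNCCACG, on either strand) was found in 7 of 32 windows, or 21.9%, against 22 of all 33469 windows, or 0.0657%. The related ERSE-II (ATTGG, any base, then CCACG) was found in 3 of 32, or 9.38%, against 0.0508% of all windows. The genes with an ERSE were Hspa5, Hsp90b1, Calr, Canx, Creld2, Dnajc3 and Xbp1, and those with an ERSE-II were Dnajb11, Hyou1 and Herpud1. The core of a further element bound by ATF6 and XBP1 (TGACGTG) was in 6 of 32 windows, or 18.8%, against 1.81% of all windows. The shorter CCAAT box, which is contained in ERSE and whose complement is contained in ERSE-II, was in 68.8% of the 32 windows and in 37.5% of all windows. The set was chosen to include chaperone genes of the unfolded protein response. A higher share of ERSE and ERSE-II than in all windows was therefore given by that choice. The shares of TGACGTG and of the CCAAT box come from the same chosen set. Whether they exceed what that choice gives was not tested.

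The stretches below show what the match looks like in genes whose expression is described further on, with the ERSE or ERSE-II match in capitals. The Hspa5 window runs over chr3:38452766-38453065 on the forward strand. The other stretches lie at chr7:23012317-23012499 (Hsp90b1, reverse strand, with an ERSE on each strand), chr15:102432504-102432582 (Dnajc3, forward), chr14:84604528-84604606 (Xbp1, forward), chr8:53602664-53602834 (Hyou1, forward, with 2 ERSE-II) and chr19:10614791-10614861 (Herpud1, reverse).
Hspa5: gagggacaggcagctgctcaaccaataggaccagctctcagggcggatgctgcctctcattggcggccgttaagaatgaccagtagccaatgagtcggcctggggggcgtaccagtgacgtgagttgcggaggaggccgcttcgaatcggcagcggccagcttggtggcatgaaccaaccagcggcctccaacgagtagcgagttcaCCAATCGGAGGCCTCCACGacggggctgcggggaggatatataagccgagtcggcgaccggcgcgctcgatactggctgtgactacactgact
Hsp90b1: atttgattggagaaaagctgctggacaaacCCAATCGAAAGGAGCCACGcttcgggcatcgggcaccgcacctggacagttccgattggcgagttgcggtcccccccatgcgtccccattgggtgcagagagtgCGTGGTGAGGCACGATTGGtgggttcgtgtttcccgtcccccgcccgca
Dnajc3: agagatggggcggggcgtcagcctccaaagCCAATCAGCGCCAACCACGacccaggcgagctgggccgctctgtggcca
Xbp1: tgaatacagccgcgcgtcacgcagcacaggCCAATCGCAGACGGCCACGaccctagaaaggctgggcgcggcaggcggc
Hyou1: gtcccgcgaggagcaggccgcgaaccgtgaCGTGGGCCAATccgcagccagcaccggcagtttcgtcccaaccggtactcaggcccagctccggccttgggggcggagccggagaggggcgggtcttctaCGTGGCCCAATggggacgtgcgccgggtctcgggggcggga
Herpud1: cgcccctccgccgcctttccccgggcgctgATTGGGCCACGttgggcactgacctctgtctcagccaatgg
A match is a sequence description and was not tested for binding.

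The comparison of OA with sham cartilage at 8 weeks addressed the later disease stage. Of the 36 tested genes, 6 fell in OA and 0 rose (limma, Benjamini-Hochberg adjusted p under 0.05 over 15934 probe sets). That is 16.7% of them, against 1.95% of all probe sets called lower and 3.46% called in either direction. Counted by gene, with 1 probe set each, 227 of all 9247 genes were called lower and 95 higher. The 6 were Sec13, Sec22a, Manf, Kdelr2, Sec61a1 and Lman1, which serve entry into the ER, export from it and retrieval to it, apart from Manf, a stress-induced ER protein. The sign was lower in 33 of 36, or 91.7%, against 55.4% of all 9247 genes. The median difference was -0.24, against -0.03 over all genes, and the values ran from -0.79 to 0.04. In whole tissue, fewer cells of a type and less RNA per cell cannot be told apart.

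**Figure D1:**
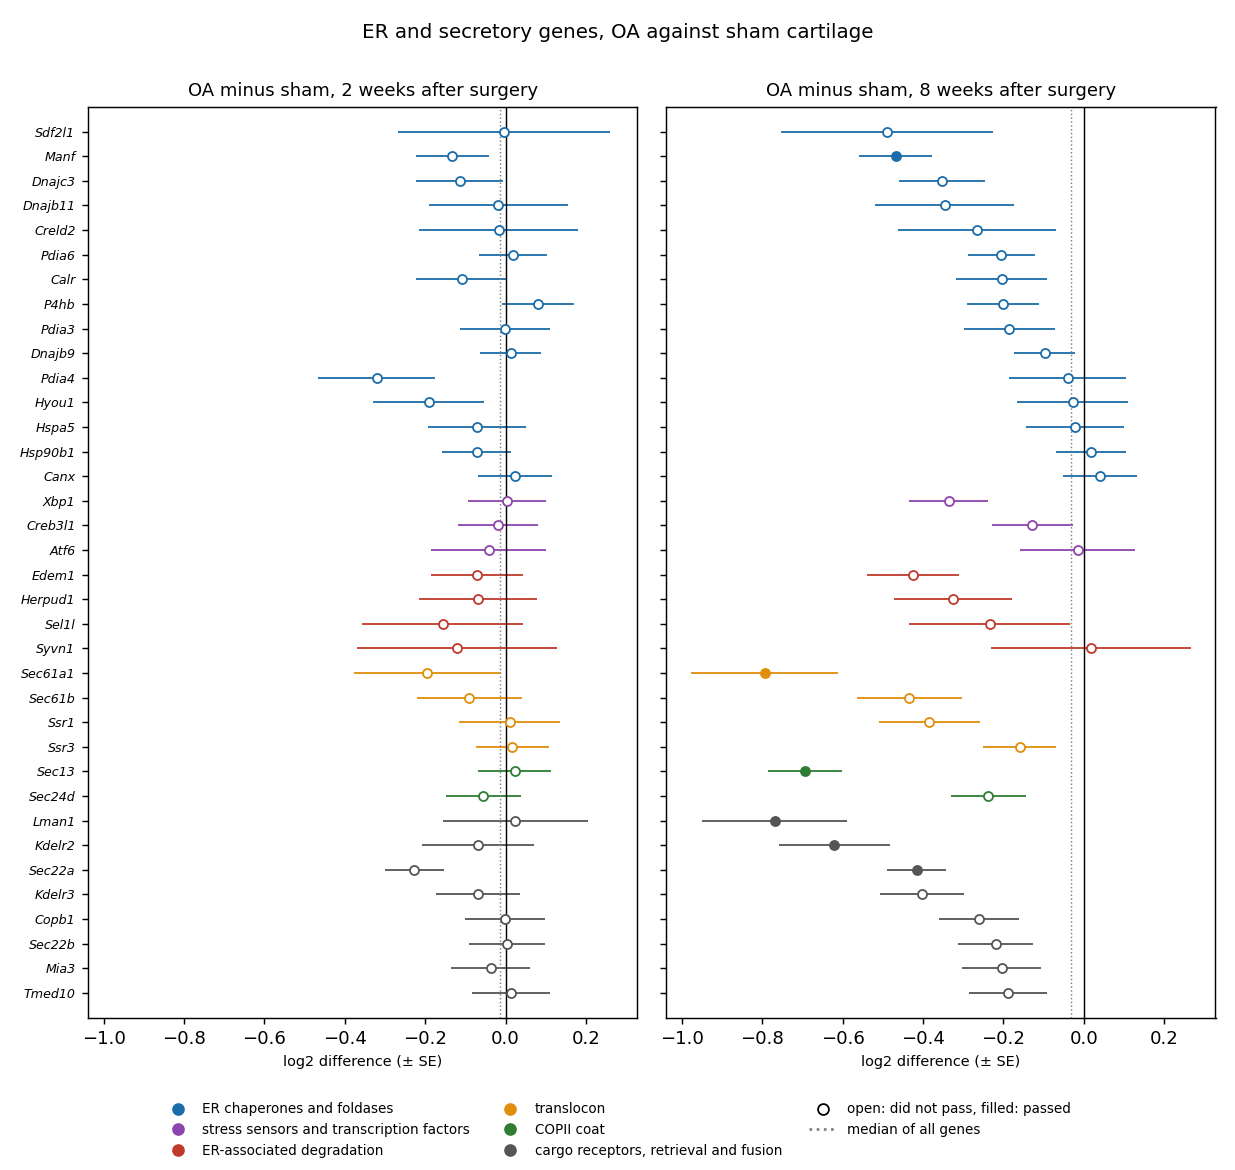
Log2 difference of OA minus sham (x axis, bars ± SE) for the 36 tested genes at 2 weeks (left) and 8 weeks (right), coloured by role, with filled points for genes that passed. At 8 weeks 33 of the 36 points lie below 0 and the 6 filled ones lie between -0.79 and -0.42.

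Sec13, a subunit of the outer COPII cage and also of the nuclear pore, read 12.62, 12.82 and 12.78 on the 8-week OA arrays, against 13.33, 13.47 and 13.49 on the 8-week sham arrays. It fell by 0.69 ± 0.09 (SE, 1.62-fold, limma adjusted p = 0.00587), with every OA array below every sham array. The other COPII gene tested, Sec24d, which binds cargo in the inner coat, differed by -0.24 ± 0.09 and did not pass (adjusted p = 0.18).

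Among cargo receptors, retrieval and fusion genes, 3 of 8 fell and all 8 had a lower sign, with a median of -0.33. Lman1, the lectin receptor ERGIC-53 that carries glycoproteins out of the ER, read 9.08, 9.56 and 9.88 in OA, against 10.29, 10.21 and 10.33 in sham (difference -0.77 ± 0.18, 1.70-fold, adjusted p = 0.0494). Kdelr2, a KDEL receptor, read 13.07, 12.87 and 13.37 in OA, against 13.70, 13.56 and 13.92 in sham (-0.62 ± 0.14, 1.54-fold, adjusted p = 0.0425). Sec22a, of the SEC22 family of ER to Golgi trafficking proteins, read 7.36, 7.35 and 7.26 in OA, against 7.72, 7.70 and 7.80 in sham (-0.42 ± 0.07, 1.33-fold, adjusted p = 0.0177). The groups did not overlap for any of the 3, but the OA arrays of Lman1 spread over a wider range than those of Sec22a. The related KDEL receptor Kdelr3 differed by -0.40 ± 0.10 without passing (adjusted p = 0.0675). Mia3, the TANGO1 protein that loads bulky collagens into COPII carriers, differed by -0.20 ± 0.10 (adjusted p = 0.261), Tmed10, a p24 cargo protein, by -0.19, Copb1, a subunit of the COPI coat, by -0.26, and Sec22b, an ER to Golgi SNARE, by -0.22, none of which passed.

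In the translocon group 1 of 4 fell, all 4 had a lower sign, and the median was -0.41. Sec61a1, the pore-forming subunit, read 11.46, 11.90 and 12.13 in OA, against 12.53, 12.71 and 12.64 in sham (-0.79 ± 0.18, 1.73-fold, adjusted p = 0.0464). Sec61b, the small beta subunit, differed by -0.43 ± 0.13 (adjusted p = 0.101). Ssr1 and Ssr3 encode subunits of the translocon-associated protein complex and differed by -0.38 ± 0.13 and -0.16 ± 0.09 without passing. A second probe set of Ssr1, with a mean of 12.26, was lower by a difference of -0.87 ± 0.19 and passed (adjusted p = 0.0414), while a second probe set of Sec61a1 differed by -0.97 ± 0.23 and missed the threshold (adjusted p = 0.0533).

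The chaperones held 1 gene of 15 that fell, 13 with a lower sign and a median of -0.20. Manf read 12.17, 12.25 and 12.25 in OA, against 12.74, 12.66 and 12.68 in sham (-0.47 ± 0.09, 1.38-fold, adjusted p = 0.0261). Several classical chaperones lay close to 0. Hspa5, which encodes the HSP70 chaperone BiP, differed by -0.02 ± 0.12 (95% interval -0.29 to 0.25), with 15.21, 15.36 and 15.55 in OA and 15.53, 15.30 and 15.36 in sham. Hsp90b1, which encodes the HSP90 chaperone GRP94, differed by 0.02 ± 0.09 (-0.17 to 0.21), and the lectin chaperone gene Canx by 0.04 ± 0.09 (-0.16 to 0.25). The intervals bound these differences and do not show that the genes stayed level. The other probe sets of Canx, at means of 9.159 and 13.19, had the opposite sign, -0.36 and -0.18, and neither passed.

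Dnajc3, the HSP40 co-chaperone P58IPK, read 10.59, 10.73 and 10.92 in OA, against 11.14, 11.03 and 11.13 in sham, and its difference of -0.35 ± 0.11 did not pass (adjusted p = 0.105). Dnajb11, another HSP40 co-chaperone of BiP, differed by -0.35 ± 0.17 (adjusted p = 0.282), and Sdf2l1, a partner of such co-chaperones, by -0.49 ± 0.26 (adjusted p = 0.316), its OA arrays at 9.32, 9.89 and 10.60. The OA range of Sdf2l1 spanned the whole of its sham range of 10.17 to 10.65 apart from the top. Calr, a calcium-binding lectin chaperone, and Creld2 differed by -0.20 and -0.27, and the HSP40 co-chaperone gene Dnajb9 by -0.10. Hyou1 differed by -0.03. Among the disulfide isomerases, P4hb, Pdia6 and Pdia3 differed by -0.20, -0.20 and -0.18 and Pdia4 by -0.04, and none passed. A second, dimmer probe set of Pdia3 (mean 7.824) had the opposite sign, 0.19 ± 0.09.

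Of the stress sensors and transcription factors, 0 of 3 tested passed. Xbp1, the factor activated by IRE1 splicing, read 13.41, 13.24 and 13.44 in OA, against 13.67, 13.70 and 13.73 in sham (-0.34 ± 0.10, adjusted p = 0.0941). Splicing of Xbp1 was not measured here. Atf6 differed by -0.02 ± 0.14 and Creb3l1, which encodes the related membrane-bound factor OASIS, by -0.13 ± 0.10. In ER-associated degradation 0 of 4 passed, with a median of -0.28. Edem1, a lectin that hands misfolded glycoproteins to degradation, differed by -0.42 ± 0.11 (adjusted p = 0.0749), Herpud1, a membrane protein of the degradation complex, by -0.32 ± 0.15 and Sel1l, the adaptor of the ubiquitin ligase, by -0.23 ± 0.20, while that ligase, Syvn1, differed by 0.02 ± 0.25. The other probe sets of Edem1, with means of 10.61 and 5.666, differed by -0.07 ± 0.21 (adjusted p = 0.891) and -0.56 ± 0.26 (adjusted p = 0.244).

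**Figure D2:**
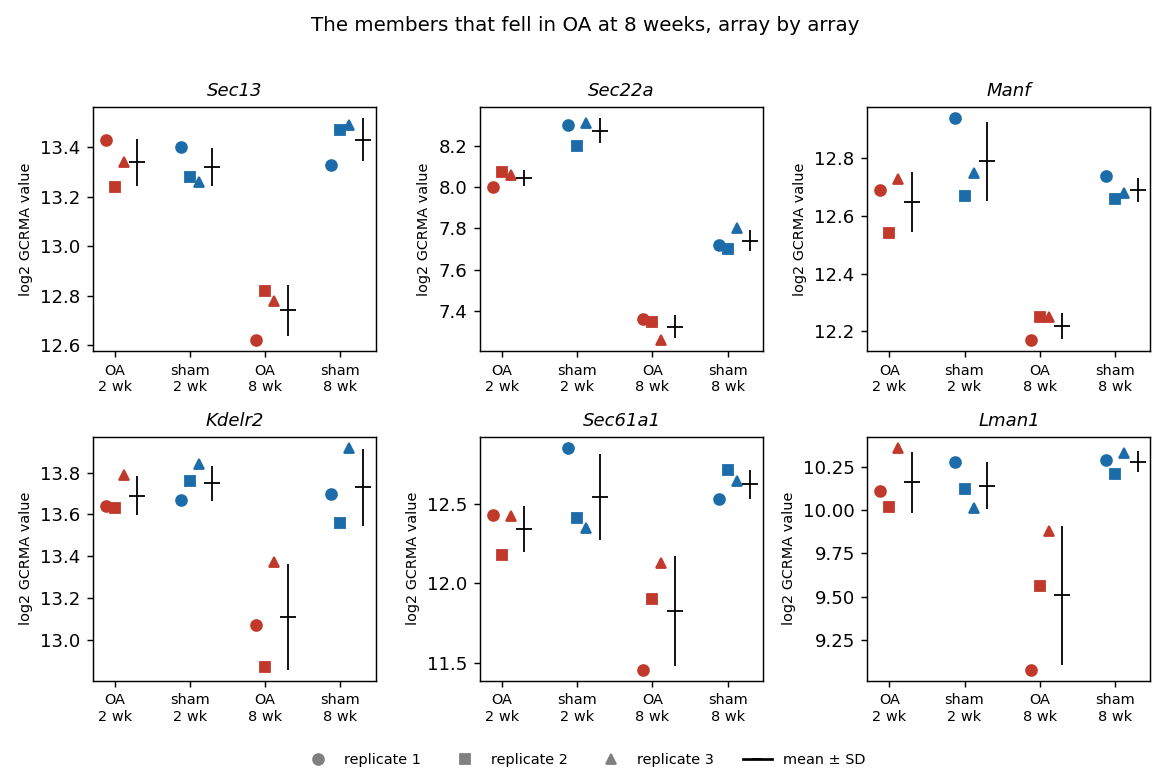
Log2 value of Sec13, Sec22a, Manf, Kdelr2, Sec61a1 and Lman1 on each array (y axis), with the mean ± SD beside each group of 3. In every panel the 3 OA arrays at 8 weeks lie below the 3 sham arrays at 8 weeks.

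Beyond the test, 19 of the 36 genes, or 52.8%, had all 3 OA arrays below all 3 sham arrays at 8 weeks, against 15.8% of all genes. All 3 OA arrays lay above in 0 of 36, against 9.73% of all genes. The shift was present at high and at lower levels. The 25 genes with a mean of at least 12 had a median of -0.22, against -0.04 for all 1855 genes at that level, and the 11 below it had -0.27, against -0.03 for all 7392 genes. The 8-week OA arrays also differed among themselves, since replicate 1 was the lowest of the 3 for 27 of 36 genes and replicate 3 the highest for 26. The median SD of the 36 genes was 0.161 on these arrays and 0.0698 on the sham arrays at 8 weeks, against 0.177 and 0.153 over all genes. The shares of non-overlapping and called genes above do not take this smaller spread into account.

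The count of 6 rested on single arrays. It was 8 without OA 8 weeks replicate 3, 4 without sham 2 weeks replicate 1, 2 without OA 8 weeks replicate 1 or replicate 2, and 1 without sham 8 weeks replicate 2 or replicate 3. Without any one of the remaining arrays it was 3. Sec13 passed in all 12 of these fits (adjusted p 0.00655 to 0.0343), Sec22a in 10 and Manf in 8. Sec22a missed without sham 8 weeks replicate 2 (0.0561) or replicate 3 (0.0822). Manf missed without those arrays (0.0766 and 0.0941) and without OA 8 weeks replicate 1 (0.0613) or replicate 2 (0.0624). Kdelr2, Sec61a1 and Lman1 passed in 1, 2 and 1 of the 12, with adjusted p values up to 0.16, 0.152 and 0.166. In a fit blocked on replicate number, Sec61a1 (0.0674) and Lman1 (0.0557) did not pass and Kdelr3 did (0.0377). With the block set within each time, Lman1 did not pass (0.0569) and Edem1 did (0.0475). Fitted on the 8-week arrays alone, 0 of the 36 passed and 27 probe sets did in all, with Sec13 at 0.0806, Manf at 0.0928 and Sec22a at 0.114. With equalized array medians 2 passed, Sec13 (0.0142) and Sec22a (0.0369).

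Markers of other cells also differed in mean level between the 8-week OA and sham arrays. The mean level of the 36 genes, relative to their 12-array mean, was -0.33, -0.19 and -0.02 on the 8-week OA arrays, against 0.12, 0.08 and 0.10 on the 8-week sham arrays. The mean of 13 kept skeletal muscle markers of 16 listed was 6.29, 3.28 and 1.95 in OA, against 2.47, -2.54 and -0.46 in sham, and 12 of 13 were higher in OA, none passing the test. In a fit that includes the muscle level, 0 of the 36 passed, 29 had a lower sign and the median was -0.18. Sec61a1 then differed by -0.49 (adjusted p = 0.443), Lman1 by -0.48 (0.452), Kdelr2 by -0.57 (0.338), Sec13 by -0.60 (0.119), Manf by -0.45 (0.24) and Sec22a by -0.42 (0.176). That fit called 29 probe sets in all, against 552 without the covariate.

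The 10 kept chondrocyte markers of 12 listed averaged -0.33, -0.38 and -0.09 on the 8-week OA arrays, against 0.23, 0.02 and -0.02 on the 8-week sham arrays, with 7 of 10 lower and 2 of them passing. All 14 kept macrophage markers of 15 listed were lower in OA, 4 of them passing, with a mean of -2.17, -2.02 and -2.10 in OA, against -1.13, 1.09 and 1.53 in sham. All 5 kept osteoclast markers of 8 fell, with a mean of -2.56, -1.41 and -1.22 in OA, against 0.49, 0.55 and 0.83 in sham. Of 9 kept osteoblast and osteocyte markers of 13, 8 were lower and 3 passed. Of the B and plasma cell list, whose cells are rich in ER, 4 of 10 were kept and all 4 had a lower sign. Of these, Ms4a1 passed the filter only through sham arrays (4.45 at 2 weeks, 4.51 and 4.16 at 8 weeks), so its sign was largely set by the filter. Mzb1, Cd79b and Tnfrsf17 stayed at background on every array, with highest values of 1.54, 2.08 and 2.88. Jchain, the immunoglobulin joining chain, read 4.31, 4.02 and 3.12 in OA, against 4.28, 5.44 and 7.26 in sham. The 3 kept erythroid markers, the 4 endothelial and the 11 cell cycle markers were all lower in sign in OA, with 1 cell cycle marker passing. The part of these cells in the result, muscle included, was not tested. Muscle level was mostly higher on the 8-week OA arrays, so the fit that includes it cannot tell muscle and OA apart.

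**Figure D3:**
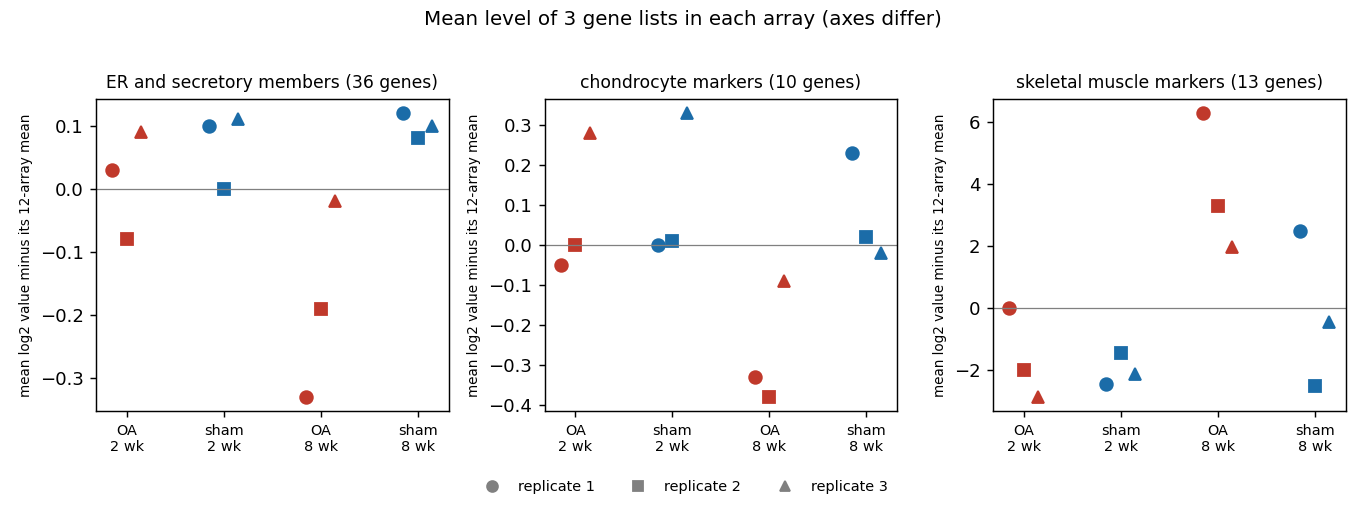
Mean log2 level on each array relative to the 12-array mean (y axis, scales differ) for the 36 ER and secretory genes, 10 chondrocyte markers and 13 muscle markers. OA 8 weeks replicate 1 has the lowest ER and secretory level, -0.33, and the highest muscle level, 6.29.

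The promoter elements were set beside the 8-week differences. The 10 genes with an ERSE or ERSE-II ran from -0.35 to 0.04 at 8 weeks, 8 with a lower sign and 0 passing, with a median of -0.235. The 22 genes with a window and neither element, 19 of them tested, ran from -0.77 to 0.02, 18 with a lower sign and 3 passing (Sec13, Sec22a and Lman1), with a median of -0.234. Manf, Kdelr2 and Sec61a1 had no window in the table. The difference between these groups was not tested.

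**Figure D4:**
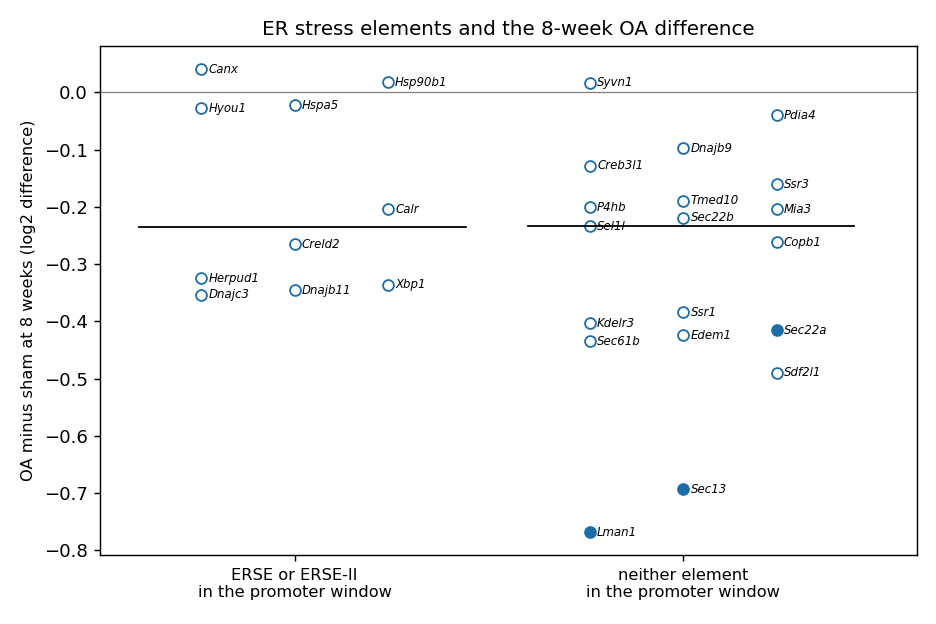
OA minus sham at 8 weeks (y axis, log2 difference) for tested genes with and without an ERSE or ERSE-II in the promoter window, with filled points for genes that passed and lines at the medians. The medians are -0.235 with an element and -0.234 without.

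At 2 weeks 0 of the 36 genes passed and 0 of all 15934 probe sets did (0%). The smallest adjusted p of the 36 was 1, and 1 of them had an unadjusted p under 0.05 in limma, against 1.5% of all genes. The median was -0.04, against -0.01 over all genes, with 25 of 36 lower in sign, or 69.4%, against 54.7%. Without OA 2 weeks replicate 2 the median was 0.01, and it was -0.10 without OA 2 weeks replicate 3 and -0.08 without sham 2 weeks replicate 2. All 3 OA arrays lay below the sham arrays for Sel1l, Sec61b and Sec22a, or 8.33%, against 3.29% of all genes, and above them for 0 of 36, against 1.99%.

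Sec22a had the smallest p of the set at 2 weeks. It read 8.00, 8.07 and 8.06 in OA, against 8.30, 8.20 and 8.31 in sham (-0.23 ± 0.07, unadjusted p = 0.011 in limma, adjusted p = 1). Next came Pdia4, a disulfide isomerase, at 12.64, 12.50 and 12.27 in OA and 12.86, 12.49 and 13.02 in sham (-0.32 ± 0.15). Its groups overlapped, and at 8 weeks it read 12.47, 12.53 and 12.73 in OA, against 12.63, 12.58 and 12.63 in sham. Hyou1, the large HSP70-family chaperone ORP150, read 8.60, 8.62 and 8.59 in OA, against 8.77, 8.61 and 9.00 in sham at 2 weeks, and 8.71, 8.42 and 8.96 in OA, against 8.80, 8.67 and 8.70 in sham at 8 weeks. Both genes had a smaller difference at 8 than at 2 weeks, and the change in difference, 0.28 for Pdia4 and 0.16 for Hyou1, did not pass. Dnajc3 read 11.06, 10.84 and 11.14 in OA and 11.14, 11.09 and 11.16 in sham at 2 weeks.

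Of the 6 genes that fell at 8 weeks, Sec22a alone had groups that did not overlap at 2 weeks. Sec13 read 13.43, 13.24 and 13.34 in OA, against 13.40, 13.28 and 13.26 in sham. Lman1 read 10.11, 10.02 and 10.36 in OA, against 10.28, 10.12 and 10.01 in sham. Kdelr2 read 13.64, 13.63 and 13.79 in OA, against 13.67, 13.76 and 13.84 in sham. For all 3 the ranges of OA and sham overlapped. Manf read 12.69, 12.54 and 12.73 in OA, against 12.94, 12.67 and 12.75 in sham, and Sec61a1 12.43, 12.18 and 12.42, against 12.85, 12.41 and 12.35, again with overlap.

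Whether the OA effect itself changed between the times was tested as an interaction. None of the 36 passed, against 0.138% of all probe sets (0.0628% higher and 0.0753% lower), and 7 had an unadjusted p under 0.05 in limma, against 10.9% of all genes. The difference of the 8-week minus the 2-week effect had a median of -0.22, against -0.03 over all genes. It was lower in sign for 29 of 36, or 80.6%, against 54.3% of all genes. Sec13 had the smallest adjusted p (-0.72 ± 0.13, adjusted p = 0.0842), which lay between 0.0531 and 0.204 when single arrays were left out, and Lman1 differed by -0.79 ± 0.26 (adjusted p = 0.317). Averaged over both times, 1 of 36 fell, against 0.232% of all probe sets called lower and 0.364% in either direction. It was Sec22a (-0.32 ± 0.05, 1.25-fold, adjusted p = 0.0398), lower in all 6 OA arrays than in the sham arrays of the same time. Its adjusted p was 0.0594 under the replicate block, 0.0766 under the block within each time, 0.0624 with quantile normalization, 0.0715 with equalized medians, 0.0897 with a variance trend and 0.247 with the muscle covariate. It passed in 2 of 12 fits that left out an array, without OA 8 weeks replicate 1 (0.0429) and without sham 8 weeks replicate 1 (0.0392), and reached up to 0.123 in the others.

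Within OA cartilage, 7 of the 36 genes fell at 8 against 2 weeks and 0 rose, 19.4% against 12.4% of all probe sets called lower and 21.7% called higher. The 7 were Sec22a (-0.72 ± 0.07, adjusted p = 3.21e-05), Sec13 (-0.60 ± 0.09, adjusted p = 0.000574), Manf (-0.43), Kdelr2 (-0.58), Lman1 (-0.65), Sec61b (-0.44) and Creb3l1 (-0.31). Sec22a was also lower at 8 than at 2 weeks within sham (-0.53 ± 0.07, adjusted p = 0.000367), the 1 gene of 36, or 2.78%, to fall there, against 6.24% of all probe sets. Within sham 24 of 36 genes were higher in sign at 8 weeks and 33.3% lower, near the 35.8% lower among all genes. The median was 0.06, against 0.08 over all genes. Within OA 27, or 75%, were lower, against 45.8% of all genes, with a median of -0.16 against 0.04. These tallies depended on the scaling. With equalized array medians 36 of 36 were lower within OA and 29 of 36 within sham, and with quantile normalization 28 were lower within OA and 16 within sham. Within OA all 3 of the 8-week arrays lay below the 2-week arrays for 11 genes (30.6%, against 18.5% of all genes) and above them for 1 (against 23.7%). Within sham they lay below for 2 (5.56%, against 9.79%) and above for 9 (against 21.8%). Other probe sets passed within OA for Ssr1 (-1.13, lower), Edem1 (-1.23, lower, mean 5.666) and Pdia3 (0.65, higher), the last also within sham (0.43, higher). These comparisons share arrays with those of OA and sham, and time cannot be told apart from any batch, because the labels give no scan date. The count within OA was 4 without OA 2 weeks replicate 3 and 11 without OA 8 weeks replicate 3, and 10 under the replicate block. Its median was -0.25 without OA 8 weeks replicate 3 and -0.09 without OA 8 weeks replicate 1. Within sham the count was 2 without sham 8 weeks replicate 2, and the median was 0.03 without sham 2 weeks replicate 2.

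The shares of time-related calls over all probe sets also moved with scaling. Among all probe sets called within OA, 36.3% were lower, 55.9% with equalized array medians and 50.3% with quantile normalization. Within sham the shares were 33.4%, 49.4% and 47.4%. Equalizing the medians shifted all genes by -0.18 within OA and -0.17 within sham. Relative to all genes, the median of the 36 was -0.20 within OA and -0.01 within sham in the values as deposited. After quantile normalization it was -0.15 within OA and 0.01 within sham.

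Other genes of the same pathways, listed by function with earlier results of these data known, were described in the same way. Of 166 listed, 159 had a probe set and 150 were tested. At 8 weeks 6 of the 150, or 4%, fell and 1 rose, and 117 had a lower sign, with a median of -0.21. Over all features 1.95% of probe sets were called lower and 1.51% higher, and 55.4% of genes had a lower sign. Lower in OA were Copz2, a COPI subunit (-0.74 ± 0.15, adjusted p = 0.0273), Surf4, a cargo receptor (-0.67 ± 0.13, adjusted p = 0.0273), Ostc, of the oligosaccharyltransferase (-0.54 ± 0.11, adjusted p = 0.0315), and Ssr4, of the translocon-associated protein complex (-0.40 ± 0.09, adjusted p = 0.0441). Ero1a, which reoxidizes protein disulfide isomerase, rose, with 11.79, 11.99 and 12.15 in OA and 10.97, 11.47 and 11.27 in sham (0.74 ± 0.15, adjusted p = 0.0308). The count of 6 was 0 without replicate 1 of OA or replicate 2 or 3 of sham at 8 weeks, 2 without OA 8 weeks replicate 2, 3 without replicate 1 of OA or replicate 1 or 3 of sham at 2 weeks, and 9 without replicate 3 of OA or replicate 1 of sham at 8 weeks. The count of 1 higher was 0 without replicate 3 of OA or of sham at 8 weeks, and 2 without replicate 1 of sham at 8 weeks. With the replicate block 2 rose and 6 fell, and with the block within each time 2 rose and 10 fell. With equalized medians and on the 8-week arrays alone 0 rose and 0 fell, and with the muscle covariate 1 rose and 0 fell. The number that fell was 14 with quantile normalization, 15 with array weights and 13 with a variance trend, and the number that rose was 2, 2 and 1.

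**Figure D5:**
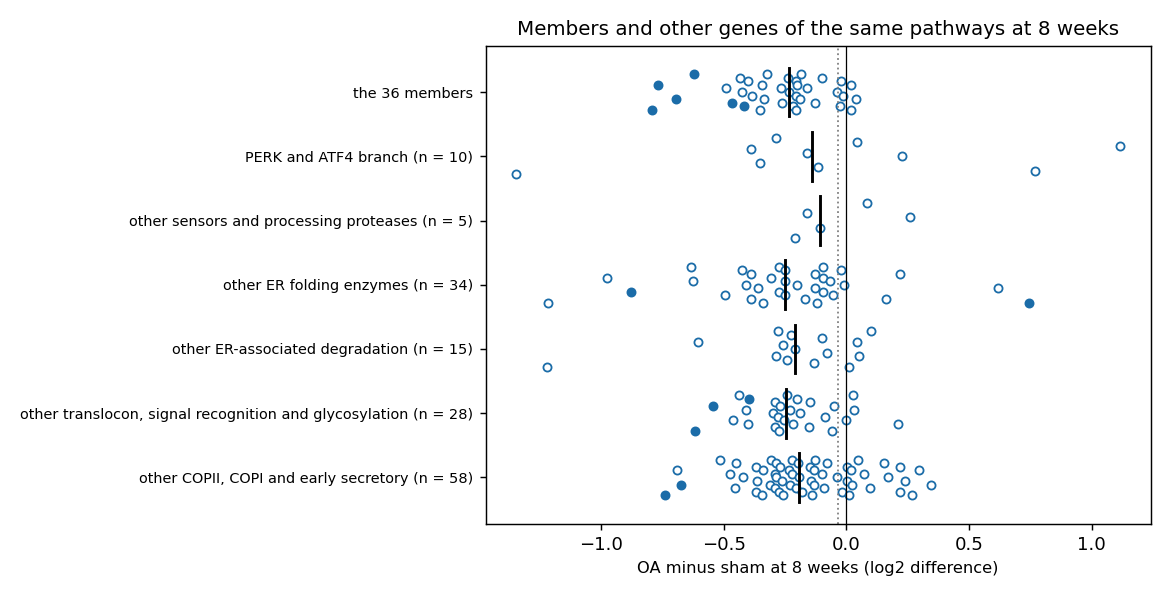
OA minus sham at 8 weeks (x axis, log2 difference) for the 36 genes and for other genes of 6 lists, each a row, with filled points for genes that passed, a bar at each median and a dotted line at the median of all genes, -0.03. All 7 bars lie to the left of the dotted line.

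By list, the medians at 8 weeks were -0.25 for 34 other folding enzymes, -0.25 for 28 genes of the translocon, signal recognition and glycosylation, -0.21 for 15 of ER-associated degradation, -0.19 for 58 of COPII, COPI and early secretion, -0.14 for 10 of the PERK and ATF4 branch and -0.11 for 5 other sensors and proteases. The PERK and ATF4 branch, which slows translation and induces stress genes, had 0 calls of 10, with 6 lower in sign. The signs of these uncalled differences were mixed. Ddit3, the stress factor CHOP, read 9.82, 9.15 and 9.47 in OA and 8.82, 8.50 and 8.83 in sham (0.77 ± 0.19, adjusted p = 0.0548), and Atf4 differed by -0.35 ± 0.10 (adjusted p = 0.0861). Chac1, a target of ATF4, differed by -1.35 ± 0.46 (adjusted p = 0.138) and Atf3 by 1.12 ± 0.56 (adjusted p = 0.285). These 4 were chosen after their values were seen, and none passed.

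At 2 weeks 0 of the 150 passed, and Dnajc10 (0.25 ± 0.12) and Fkbp7 (-0.41 ± 0.19) had the smallest p. Averaged over both times 0 passed, with Ssr4 (-0.28) and Copz2 (-0.45) at adjusted p = 0.108 and 0.117. In the interaction 0 passed, with Ero1a (0.75) and Ppic (-0.62) at 0.252 and 0.259. Within OA 7 of the 150 rose and 9, or 6%, fell at 8 against 2 weeks, against 21.7% of all probe sets called higher and 12.4% called lower. The smallest p among rises were those of Atf3 (3.34), Ero1a (0.85), Trib3 (0.82) and Sar1b (0.34), and among falls those of Rcn1 (-1.01), Ppic (-0.56), Stx5 (-0.42) and Sec61g (-0.34). Within sham 6 of the 150 rose and 0 fell, against 12.5% of all probe sets called higher and 6.24% called lower. The smallest p were those of Gbf1 (0.87), Tfg (0.42), Stx18 (0.50) and Trib3 (0.59).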

How the data were processed

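The members, gene lists and tests were chosen with earlier results of these data known. The authors deposited log2 values made with GCRMA (background correction, normalization between arrays, summary per probe set), per the submitters' processing notes; the version is not given in the sources used here. They were used without further normalization. Between 48.3% and 49.9% of probe sets of an array lay above log2 4. Of 31099 probe sets, 57 controls and those not above log2 4 on at least 3 of 12 arrays were left out, and 15934 were kept, standing for 9247 genes. A model with 1 mean per group was fitted with limma 3.58.1 in R 4.3.3 (lmFit, eBayes; 8 residual and 1.94 prior degrees of freedom), adjusted by Benjamini-Hochberg over all kept probe sets, and called under 0.05. The code was tested on simulated data. Probe sets with several symbols were not used. Array values were given for members called or among the 6 with the smallest p at either time, and for Hspa5, Xbp1 and Sdf2l1, chosen after their values were seen; of other pathway genes, up to 4 per direction with the smallest p were named. Deviations from the group means of same-numbered OA and sham arrays correlated at 0.333, 0.36 and 0.527 at 2 weeks and 0.239, 0.237 and 0.119 at 8 weeks. Between same-numbered arrays of different times the values were 0.0352, 0.237 and 0.0489 within OA and -0.497, 0.0739 and -0.424 within sham. Differently numbered arrays were not compared. The labels do not say that the numbers mark pairs, and this check cannot settle it. Alternatives were no filter, a filter at log2 6, array weights, the replicate block, a robust variance trend, added quantile normalization, equal medians on all arrays, the mean over a gene's probe sets, the muscle level as covariate, the compared arrays alone, and each array left out. Figures were drawn with matplotlib 3.10.9 under Python 3.11.15.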

Additional observations from a re-analysis of the deposited data

How the results depend on the processing

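At 2 weeks the count of genes that passed was 0 under every alternative run. At 8 weeks it was 6, and 1 to 8 when single arrays were left out. It was 3 with no filter, 2 with equalized array medians, 10 with array weights, 0 when the muscle level was included and 0 on the 8-week arrays alone, where 27 probe sets passed in all and Sec13 had an adjusted p of 0.0806. It was 7 with quantile normalization and with a variance trend, 5 with the replicate block and 6 with the replicate block within each time, which was added after seeing the data. With the mean over a gene's probe sets it was also 6, but Sec61a1 missed (-0.58, limma adjusted p = 0.0531) and Ssr1 passed. The median at 8 weeks kept its sign, between -0.31 and -0.17 without single arrays. The averaged count of 1 was 0 with equalized medians, with either replicate block and with the muscle covariate, 3 with array weights, and 0 to 2 without single arrays. With quantile normalization or a variance trend it was still 1, but the gene was Sec13 (adjusted p 0.0489 and 0.0438) in place of Sec22a. The interaction count of 0 was 1 with array weights. Within OA, the count of 7 at 8 against 2 weeks was 11 with no filter or a variance trend, 14 with quantile normalization or equalized medians, 1 with the muscle covariate and 4 to 11 without single arrays. Its median of -0.16 was -0.34 with equalized medians, -0.076 with the muscle covariate and -0.25 to -0.091 without single arrays. Within sham the count of 1 was 1 to 2 without single arrays, and the median of 0.06 was -0.11 with equalized medians. Beyond the calls named in the report, the replicate block added Xbp1 (0.037), Edem1 (0.0452) and Kdelr3 (0.0414) within OA and changed no other call. The signs of uncalled differences changed in at least 1 alternative for 19 of 36 genes at 2 weeks and 11 at 8 weeks. The causes were not tested. Signals near background limit what Creb3l2 and Sec31a can show.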
